A study of Gossypium hirsutum with 6 samples.

Results

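Leaves of the upland cotton genotype Nan Dan Ba Di Da Hua, which the labels call heat tolerant, were compared after 8 h at 45 °C with leaves kept at 28 °C. The comparison used 2 of the 6 leaf mRNA libraries of the series, 1 for each condition. It covers the 17766 transcripts, of 421554 listed, that reached 10 RPKM or more in either library. RPKM is the number of reads divided by the length of the transcript and by the size of the library. These transcripts make up 4.21% of the list and belong to 10343 of its 148415 components, a component being the set of assembled transcripts that share an identifier up to the sequence number. They held 56.8% of all RPKM at 8 h and 60.6% in the control.

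Both groups were seedlings of the tolerant genotype at about 20 days of age, with 3 leaves, fed with diluted Hoagland's solution and raised under 14 h of light at 28 °C, with nights at 22 °C. The heated seedlings were moved to 45 °C at midday, when the light had been on for about 6 h, and the other seedlings served as the control at 28 °C. The remaining libraries were the same genotype after 4 h at 45 °C and Earlistaple 7, labelled heat sensitive, after 4 h and 8 h at 45 °C and at 28 °C. By these times the 8 h leaves were taken about 14 h after the onset of light, at the end of the light period, while the labels give no single hour for the control. Heat and hour of day cannot be told apart in this comparison. Each group was 1 library, so there is no spread between plants to set a difference against, and the values are sizes without a test.

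In plant leaves, heat is known to unfold proteins and to activate heat shock transcription factors. These switch on genes for molecular chaperones, the heat shock proteins, which hold or refold damaged proteins. Photosynthesis is among the most heat-sensitive processes of a leaf, and transcripts for its proteins are usually among the most abundant in unheated leaves. The transcript identifiers are not paired with gene names in the files, and a search of the 99454 genes in the RefSeq table of assembly Gossypium_hirsutum_v2.1 gave 0 matches. No transcript could therefore be assigned to one of these functions. The tolerance stated in the labels and the tissue could not be checked against marker genes.

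Most transcripts at 10 RPKM or more differed at least 2-fold between heated and control leaves, with the directions near balance at this limit and scaling. On the log2(RPKM + 1) scale, 6460 transcripts were at least 2-fold higher at 8 h, 36.4% of the 17766 compared, and 6788 were at least 2-fold lower, 38.2%. The other 4518, or 25.4%, were less than 2-fold apart. Past 8-fold, 1722 transcripts (9.69%) were higher and 2268 (12.8%) lower. The median log2 ratio was -0.13, with quartiles at -1.91 and 1.72. In whole leaves, less RNA per cell and fewer cells of a type cannot be told apart.

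The balance of directions depended on the scaling and on which transcripts were compared. After median-of-ratios scaling 6725 were higher and 6564 lower, and after upper-quartile scaling 5954 were higher and 7325 lower. These scalings shifted the log2 ratio of 8 h over control by 0.10 and -0.21. With transcripts taken instead at 10 RPKM in either sensitive library of the same conditions, a choice made after seeing the data, 3513 were higher and 7250 lower, and with no limit 45233 were higher and 34182 lower. Counted once per component, by its transcript of highest mean RPKM over both libraries, 3404 components (32.9% of 10343) stood at least 2-fold above their control at 8 h and 4201 (40.6%) below it. Among them 941 components (9.1%) were higher by 8-fold or more and 1489 (14.4%) lower.

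**Figure D1:**
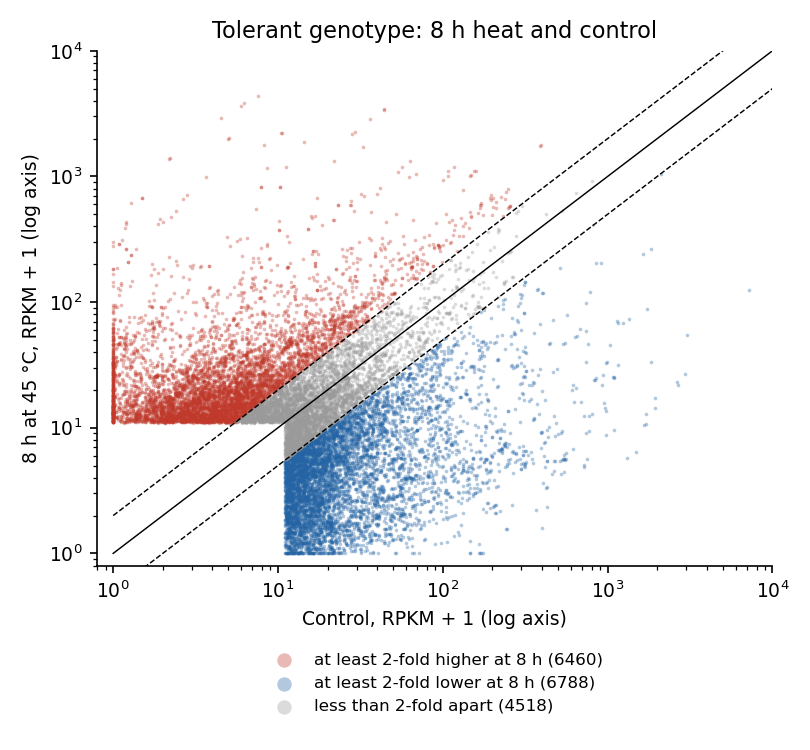
RPKM + 1 of 17766 transcripts after 8 h at 45 °C (vertical) and in the control (horizontal) of the tolerant genotype, on log axes, with 1 point per transcript. The solid line marks equal values and the dashed lines a 2-fold difference, and the empty lower left corner is set by the limit of 10 RPKM. At this limit and scaling points lie on both sides in similar number, 6460 higher and 6788 lower at 8 h.

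Few transcripts were well expressed in both libraries. Only 4663 transcripts reached 10 RPKM in each of them, while 6295 did so at 8 h only and 6808 in the control only. The 13103 transcripts (73.8%) that passed the limit through 1 library were in that way favoured to differ. Of the 4663 that passed in both, 1059 were higher at 8 h by 2-fold or more, 914 were lower and 2690 were less than 2-fold apart. Just inside the limit, with a higher value of 10.0 to 10.5 RPKM, 36.0% of 917 transcripts lay at least 2-fold higher at 8 h and 32.4% lay lower. Just outside it, at 9.5 to 10 RPKM, 35.5% of 998 were higher and 30.1% lower.

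Among abundant transcripts fewer still were high in both libraries. Of 1234 transcripts that reached 100 RPKM somewhere in the pair, 140 did so in both libraries, and 68 of these were less than 2-fold apart. The most abundant of those 68 measured 920.12 RPKM at 8 h and 801.93 RPKM in the control. The 100 most abundant transcripts of the 8 h library and the 100 most abundant of the control had 4 transcripts in common. In the sensitive genotype the same lists of 8 h and control had 16 in common, and the tolerant 8 h and 4 h libraries had 60. Between the controls of the tolerant and the sensitive genotype 86 of 100 were in common, and between their 8 h libraries 49. The 100 leading transcripts of the 8 h library, from 62 components, had a median of 714 RPKM at 8 h and 54.0 RPKM in the control, where 25 of them were below 10 RPKM. The 100 leading transcripts of the control, from 82 components, had a median of 20.3 RPKM at 8 h and 738 RPKM in the control. At 8 h 36 of them were below 10 RPKM and 0 were below 1 RPKM. Each list was chosen by its own library, which favours a lower level in the other.

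The transcripts higher at 8 h held about as much of the RPKM there as those lower at 8 h held in the control. The 6460 higher transcripts held 5.96% of all RPKM in unheated tolerant leaves, 21.4% after 4 h of heat and 39.6% after 8 h. The 6788 lower transcripts held 42.6% unheated, 12.2% after 4 h and 5.09% after 8 h, and the share of the 4518 others stayed between 12.0% and 12.7%. The control and 8 h values chose these groups, so the shares there are descriptions. The 4 h library and the sensitive genotype had no part in the choice. In sensitive leaves the higher group held 4.82% unheated, 18.7% after 4 h and 17.9% after 8 h, and the lower group 41.3%, 19.3% and 15.3%. At 4 h the higher group thus held similar shares in both genotypes. The choice of the group favoured a high 8 h share in tolerant leaves. The gap between 39.6% there and 17.9% in sensitive leaves is therefore no measure of a difference in response.

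**Figure D2:**
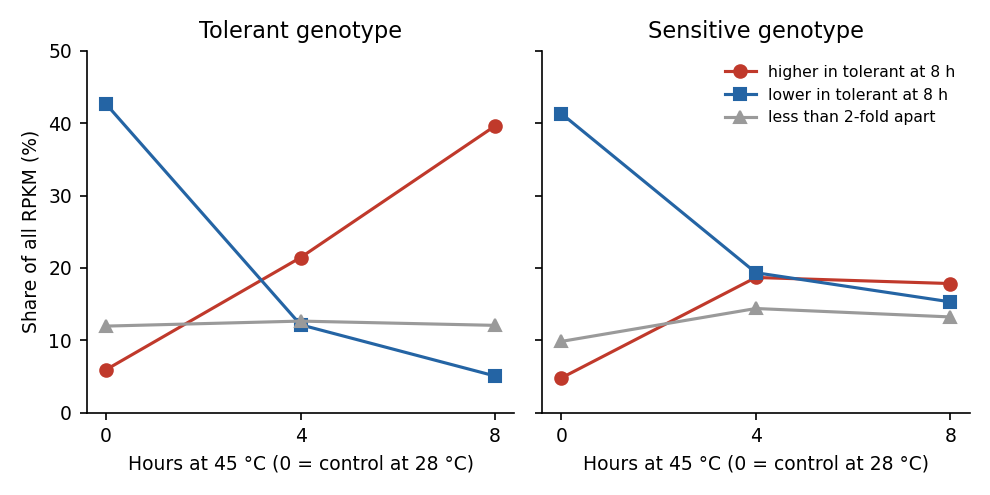
Share of all RPKM (vertical, percent) against hours at 45 °C (0 is the control at 28 °C) in the tolerant (left) and sensitive (right) genotype. Lines stand for the 6460 transcripts higher, the 6788 lower and the 4518 less than 2-fold apart in the tolerant genotype at 8 h, with 1 library per point. At 8 h the higher group holds 39.6% in tolerant leaves and 17.9% in sensitive leaves. The tolerant control and 8 h values chose the groups, which favours a wider change in that genotype.

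The transcript with the highest ratio was comp104672_c0_seq5. It had 3.51 RPKM in unheated tolerant leaves, 1330.84 RPKM after 4 h of heat and 2907.66 RPKM after 8 h, and was 828-fold higher at 8 h than in the control (log2 ratio 9.33). Sensitive leaves had 1.49 RPKM unheated, 536.29 RPKM after 4 h and 541.85 RPKM after 8 h, 364-fold higher at 8 h. It was high in the 4 heated libraries and low in both controls, and highest in the tolerant 8 h library. The 9 transcripts of its component were all in the comparison, with log2 ratios between 5.29 and 9.33.

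The most abundant transcript of the 8 h library outside that component was comp112949_c1_seq16, at rank 2 in that library and rank 22430 in the control. Tolerant leaves had 5.26 RPKM unheated, 1866.51 RPKM after 4 h and 3853.57 RPKM after 8 h, 733-fold higher at 8 h. Sensitive leaves had 1.55 RPKM unheated, 769.39 RPKM after 4 h and 695.83 RPKM after 8 h. It ran close to a transcript of the component named before it, at 1.01 to 1.06 times that transcript's RPKM in the 6 libraries, so the pair need not be separate loci. All 26 transcripts of its own component were compared, and their log2 ratios lay between 2.81 and 9.27.

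The lowest ratio belonged to comp92088_c0_seq1, the only transcript of its component. It had 398.53 RPKM in unheated tolerant leaves, 29.03 RPKM after 4 h and 0.58 RPKM after 8 h, 687-fold lower at 8 h (log2 ratio -7.98). In sensitive leaves it had 167.92 RPKM unheated, 27.85 RPKM after 4 h and 12.27 RPKM after 8 h, 13.7-fold lower at 8 h. At 4 h the genotypes were near each other, and at 8 h the tolerant library alone was below 1 RPKM.

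The most abundant transcript of the control, comp95781_c0_seq1, was lower at 8 h in both genotypes. Tolerant leaves had 7185.69 RPKM unheated, 913.98 RPKM after 4 h and 124.1 RPKM after 8 h. Sensitive leaves had 5166.93 RPKM unheated, 2725.61 RPKM after 4 h and 98.6 RPKM after 8 h. Its rank was 480 at 8 h and 1 in the control of the tolerant genotype. At 8 h it was 57.9-fold lower than control in tolerant leaves and 52.4-fold lower in sensitive leaves, and after 4 h tolerant leaves had the lower level.

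**Figure D3:**
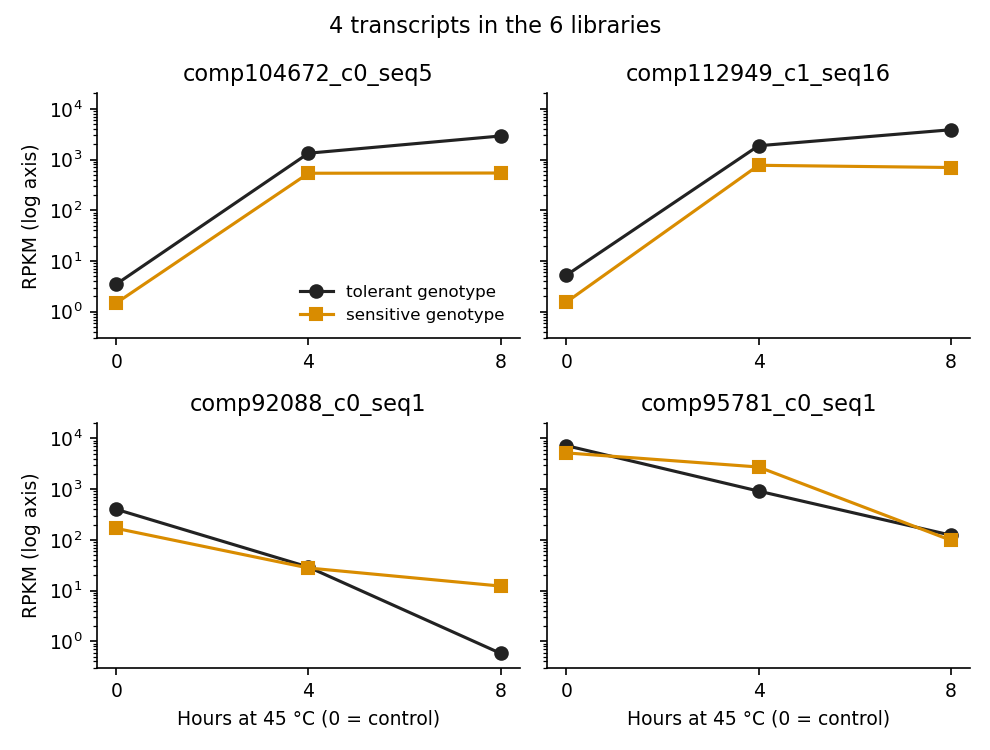
RPKM on a log axis against hours at 45 °C (0 is the control) for 4 transcripts, with 1 library per point, in the tolerant and the sensitive genotype. The upper transcripts reach 2907.66 and 3853.57 RPKM in the tolerant 8 h library, and the lower ones end at 0.58 and 124.1 RPKM there.

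The extremes of the comparison moved the same way in the sensitive genotype, which shares no library with it. The 10 transcripts with the highest ratios, 1 per component, had log2 ratios of 8.51 to 9.33 in the tolerant genotype and 5.52 to 8.11 in the sensitive genotype. Their levels ran from 433.06 to 3853.57 RPKM at 8 h (median 1395) and from 0.19 to 5.26 RPKM in the control (median 1.19). At 4 h they stood at 58.51 to 1866.51 RPKM, and 9 of the 10 were higher at 8 h than at 4 h. The exception had 0.19 RPKM unheated, 768.93 RPKM after 4 h and 433.06 RPKM after 8 h in tolerant leaves. Those in places 6 and 7 had the same value in all 6 libraries, and 2 further pairs kept a ratio of 1.02 to 1.03 wherever both were at 1 RPKM or more, so the list holds fewer separate profiles than identifiers.

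The 10 transcripts with the lowest ratios had log2 ratios of -7.98 to -7.32 in the tolerant genotype and -5.67 to -1.22 in the sensitive genotype. Their levels lay at 0 to 9.63 RPKM at 8 h and 163.7 to 1695.89 RPKM in the control. Among them 4 were listed at 0 at 8 h. Places 2 and 3 of the list kept a ratio of 1.12 to 1.14 in the 6 libraries, so they need not be separate profiles. At 4 h the 10 were already at 2.2 to 30.74 RPKM. Sensitive leaves had 0.3 to 68.43 RPKM of them after 8 h, above the tolerant 8 h value for each of the 10. The tolerant ratios chose the list, which favours low tolerant 8 h values, so this order is no measure of a difference in response. One of the 4 listed at 0 measured 163.7 RPKM in the tolerant control and 2.02 RPKM in the sensitive control, so the genotypes already differed without heat.

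The leading transcripts of the 8 h library differed in their control level. Of its 10 most abundant, 1 per component, 8 had a control level of 3.94 to 43.1 RPKM and 2 were already abundant there. Among the 8, those in places 3 and 4, 5 and 6, and 7 and 8 kept ratios of 1.00 to 1.02 to each other in the 6 libraries, so there are fewer separate profiles than 8. The 2 abundant in the control measured 1781.47 and 1757.9 RPKM at 8 h, against 391.58 and 385.62 RPKM in the control, 4.55-fold and 4.56-fold higher, and kept a ratio to each other of 1.01 to 1.02 in the 6 libraries. At 4 h they stood at 376.09 and 370.09 RPKM, near their control level. The 10 most abundant transcripts of the control, 1 per component, were at least 2-fold lower at 8 h. Their levels were 9.58 to 1050.36 RPKM at 8 h and 1636.38 to 7185.69 RPKM in the control. In the sensitive genotype 7 of these 10 were at least 2-fold lower at 8 h, and log2 ratios ran from -5.70 to -0.39. Each list was chosen by a level that enters the ratio. This favours a high ratio in the 8 h list and a low one in the control list. In the control list, places 6 and 10 kept a ratio of 1.11 and places 8 and 9 one of 1.01 to 1.02. The least reduced of that list measured 1050.36 RPKM at 8 h and 2103.3 RPKM in the control, at the 2-fold limit, and held rank 31 at 8 h.

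Transcripts were next grouped by RPKM in unheated sensitive leaves, a library outside the ratio, with no lower limit in the tolerant libraries. The higher that level, the lower was the ratio of 8 h to control in the tolerant genotype. The controls of both genotypes had 86 of their 100 most abundant transcripts in common, so the classes follow the tolerant control too. Grouping by level in unheated leaves therefore favours a low ratio, and the trend is a description. In the class of 10 to 30 RPKM, 8142 transcripts had a median log2 ratio of -1.15, and 54.3% were at least 2-fold lower at 8 h while 8.70% were higher. The 2119 transcripts at 30 to 100 RPKM had a median of -2.00, the 487 at 100 to 300 RPKM one of -3.91, and the 138 at 300 to 1000 RPKM one of -5.43. The 36 transcripts at 1000 RPKM or more had a median of -5.77, and 36 of 36 were at least 2-fold lower at 8 h.

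The levels reached at 8 h were much alike across the classes up to 1000 RPKM, and higher in the class above them. Median RPKM at 8 h was 5.80, 9.98, 7.88 and 8.44 in the classes up to 1000 RPKM, against 14.1, 42.9, 148 and 414 RPKM in the control. In the highest class the medians were 24.3 RPKM at 8 h and 1278 RPKM in the control. The sensitive 8 h library gave higher medians for the same classes, 11.2, 22.8, 29.4, 49.0 and 146 RPKM, although the sensitive control that defined the classes may favour high values in that genotype. Not all abundant transcripts were lower: 31 of the 487 at 100 to 300 RPKM exceeded their control at least 2-fold at 8 h, which 0 of the 174 above that level did.

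**Figure D4:**
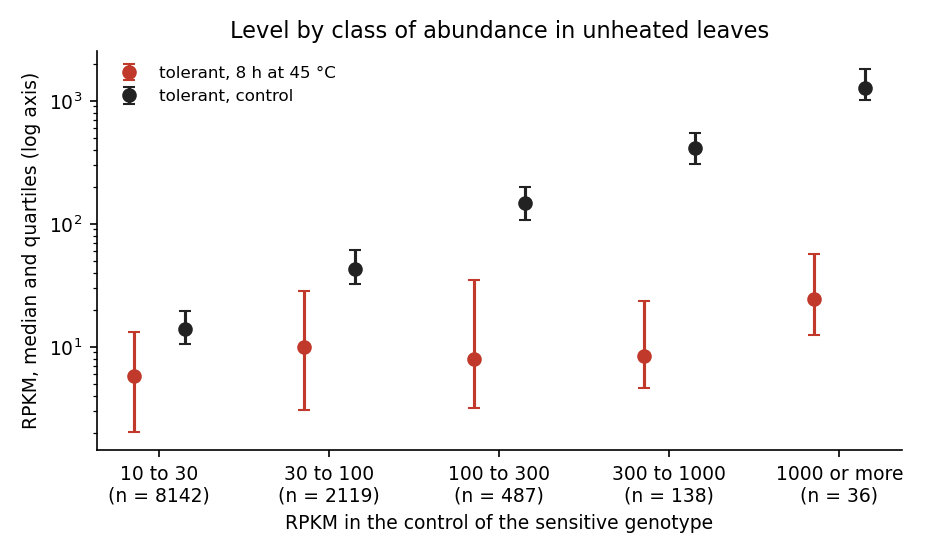
RPKM in the tolerant genotype (vertical, log axis) after 8 h at 45 °C and in the control, for transcripts classed by RPKM in the control of the sensitive genotype (horizontal). Points are medians over the transcripts of a class and bars run between the quartiles. The 8 h medians stay between 5.80 and 24.3 RPKM while the control medians run up to 1278 RPKM. Classes were set by an unheated library, which favours a low ratio of 8 h to control.

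Over all 421554 transcripts the number listed at 0 was similar, 54739 at 8 h and 53631 in the control. Of the 17766 transcripts compared, 95 (in 93 components) were listed at 0 at 8 h and 354 (in 218 components) at 0 in the control. Each had to reach 10 RPKM in the other library. The 354 measured 10.02 to 301.12 RPKM at 8 h, with a median of 17.0 RPKM. Of the 354, 288 were listed at 0 in the sensitive control too, and 97 were still listed at 0 in the tolerant 4 h library. Over all 421554 transcripts, 46804 were listed at 0 in the sensitive control and 38956 in the tolerant 4 h library. The medians of the 354 were 0.41 RPKM in the tolerant 4 h library, 0 in sensitive leaves after 4 h and 3.65 RPKM in sensitive leaves after 8 h. The 95 measured 10.01 to 173.76 RPKM in the control. Among them 18 were listed at 0 in the sensitive 8 h library, where 32687 of all 421554 were, and 7 in the tolerant 4 h library. The 8 h library had 0.795 times the depth of the control.

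Transcripts of the same component mostly went the same way. Among 3314 components with at least 2 transcripts compared, 1052 (31.7%) had them all at least 2-fold higher at 8 h and 1087 (32.8%) all at least 2-fold lower. In 572 (17.3%) all were less than 2-fold apart. Only 76 (2.29%) held transcripts at least 2-fold apart in both directions. The median range of log2 ratios within a component was 0.27, with quartiles of 0.09 and 0.78. Transcripts of a component may share reads, so they are not independent. The widest split was in a component with 12 transcripts compared. One of its transcripts measured 50.28 RPKM at 8 h and 0.49 RPKM in the control (log2 ratio 5.11), and another measured 4.08 RPKM at 8 h and 25.29 RPKM in the control (log2 ratio -2.37). In sensitive leaves the one higher at 8 h measured 9.77 RPKM at 8 h against 0.1 RPKM in the control, while the other had 13.49 RPKM at 8 h against 22.98 RPKM in the control.

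The sensitive genotype, measured in other libraries, showed most of the higher transcripts higher too, and fewer of the lower ones lower. Of the 6460 transcripts higher in the tolerant genotype, 4372 (67.7%) were at least 2-fold higher in the sensitive genotype at 8 h, and these were 75.1% of the 5819 that were higher there. Over all 17766 transcripts 32.8% were higher in the sensitive genotype. Of the 6788 lower ones, 3114 (45.9%) were at least 2-fold lower in the sensitive genotype, against 19.2% of all 17766, and they were 91.2% of the 3416 lower there. A further 3092 (45.6%) of the 6788 were less than 2-fold apart there. After 4 h in sensitive leaves, 2994 (46.3%) of the 6460 were at least 2-fold higher, against 25.0% of all 17766, and 2938 (43.3%) of the 6788 were lower, against 18.6%.

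This order of the directions turned under 1 of the scalings. Under median-of-ratios scaling 52.2% of the transcripts higher in the tolerant genotype were also higher in the sensitive genotype, and 58.3% of those lower were also lower, against 26.0% and 25.1% of all 17766. Under upper-quartile scaling the shares were 58.3% and 53.3%, in the same order as with values as deposited, against 27.0% and 24.4% of all. The scalings shifted the sensitive log2 ratio of 8 h over control by -0.37 and -0.32. That the transcripts higher or lower in the tolerant genotype lean the same way in the sensitive one held under each scaling, with sensitive medians of 1.05 to 1.39 for the higher and -1.23 to -0.87 for the lower group.

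The larger the ratio in the tolerant genotype, the larger it was in the sensitive one. Transcripts 2 to 4-fold higher in the tolerant genotype had a median log2 ratio of 0.92 in the sensitive genotype, and 44.5% of the 2718 were at least 2-fold higher there, against 32.8% of all 17766. Of the 1023 that were 8 to 16-fold higher, 94.3% were higher in the sensitive genotype, with a median of 2.06. Of the 93 at least 64-fold higher, 92 were higher there, with a median of 5.20 in the sensitive and 6.93 in the tolerant genotype. On the other side, 21.2% of 2573 transcripts 2 to 4-fold lower in the tolerant genotype were at least 2-fold lower in the sensitive genotype, close to the 19.2% of all 17766. That share was 69.5% of 1316 at 8 to 16-fold and 74 of 80 at 64-fold or more. The tolerant ratios chose the classes, which favours larger values in that genotype, so the gap between the genotypes within a class is no measure of a difference in response.

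**Figure D5:**
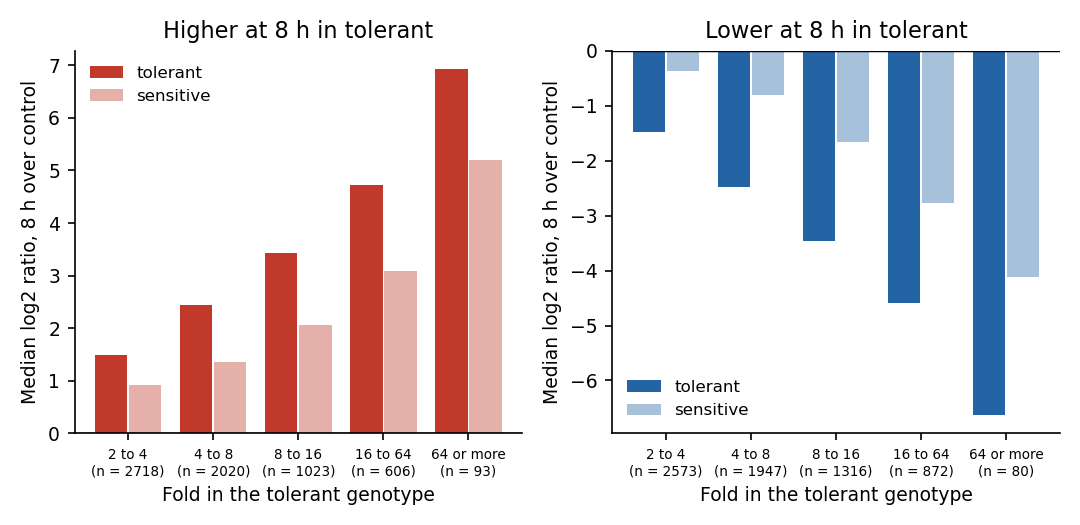
Median log2 ratio of 8 h over control (vertical) in the tolerant (dark) and sensitive (pale) genotype, for transcripts classed by their fold in the tolerant genotype (horizontal), higher on the left and lower on the right. Classes were chosen by the tolerant values. The sensitive medians reach 5.20 in the highest class and -4.11 in the lowest.

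In tolerant leaves the median level at 4 h lay between control and 8 h in each of these classes. Transcripts 16 to 64-fold higher at 8 h had medians of 0.27 RPKM unheated, 5.45 RPKM after 4 h and 40.5 RPKM after 8 h in tolerant leaves, and of 0.12 RPKM, 2.10 RPKM and 10.3 RPKM in sensitive leaves. Those 16 to 64-fold lower had medians of 58.0 RPKM unheated, 6.31 RPKM after 4 h and 1.40 RPKM after 8 h in tolerant leaves, and of 63.8 RPKM, 10.9 RPKM and 9.07 RPKM in sensitive leaves. The 4 h and 8 h comparisons share the control library, so levels are given and no overlap of calls.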

How the data were processed

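Leaf mRNA was sequenced on an Illumina HiSeq system, per the series' design text. The authors deposited 1 RPKM value per transcript and library, with 2 decimals, per the file headers. How transcripts were assembled and reads counted is not given in the sources used here. RPKM is a share of the library, so that when abundant transcripts drop the others gain.

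Ratios of 8 h over control were computed as log2 of (RPKM + 1) where at least 1 of the libraries reached 10 RPKM, which understates folds of low values. Folds of single transcripts are plain RPKM ratios. With 1 library per group no test was run. The total depth is unknown. The spacing of low values in 56910 transcripts gave the 8 h library 0.795 times the depth of the control. Identifiers were limited to the highest and lowest ratio and the most abundant higher and lower transcript, 1 per component. Members and rules were chosen with earlier results of these data known. Alternatives were a pseudocount of 0.1 RPKM, other filters, 2 scalings, sums per component, and, chosen after seeing the data, a filter on the sensitive libraries and a merging of proportional transcripts. Counting was tested on simulated data with known changes and small noise. That simulation checks the code only, and did not cover the filter of 10 RPKM or the spread between plants. Python 3.11.15, numpy 2.4.6, pandas 2.3.3 and scipy 1.17.1 were used.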

Additional observations from a re-analysis of the deposited data

Results flagged for a closer look

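Of the 6788 transcripts at least 2-fold lower at 8 h in the tolerant genotype, 582 (8.57%), of 339 components, were at least 2-fold higher at 8 h in the sensitive genotype, below the 32.8% of all 17766 that were. The opposite pattern was found in 22 of the 6460 higher transcripts, of 19 components, below the 19.2% of all 17766 that were lower in the sensitive genotype. Each genotype had 1 library per condition, so the difference between the genotypes was not tested. In tolerant leaves the 582 had medians of 23.5 RPKM unheated, 8.66 RPKM after 4 h and 4.93 RPKM after 8 h. In sensitive leaves the medians were 3.48 RPKM, 18.5 RPKM and 23.0 RPKM, so the unheated leaves already differed. The widest example had 47.59 RPKM unheated, 1.56 RPKM after 4 h and 1.44 RPKM after 8 h in tolerant leaves, and 0.75 RPKM, 2.38 RPKM and 22.57 RPKM in sensitive leaves. For the 22 the medians were 7.00 RPKM unheated, 7.06 RPKM after 4 h and 20.5 RPKM after 8 h in tolerant leaves, and 13.2 RPKM, 5.92 RPKM and 4.23 RPKM in sensitive leaves. The widest of these had 1.26 RPKM, 5.38 RPKM and 11.44 RPKM in tolerant leaves, and 6.35 RPKM, 1.65 RPKM and 1.16 RPKM in sensitive leaves. With median-of-ratios scaling the counts were 489 and 43, with upper-quartile scaling 580 and 23.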

How the results depend on the processing

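Counts of calls followed the filter, since it sets how many transcripts are compared. At least 2-fold higher and lower were 45233 and 34182 transcripts (with a filter of 1 RPKM and with none), 13037 and 12437 (5 RPKM) and 3091 and 3403 (20 RPKM). The components were 23572 and 17165 (1 RPKM), 23535 and 17126 (no filter), 6138 and 7192 (5 RPKM) and 1762 and 2259 (20 RPKM), so the larger direction turned with the filter. At 20 RPKM 1099 transcripts were at least 8-fold higher. Summing RPKM per component brought 20123 components past 10 RPKM, of which 5994 were higher and 6799 lower. When transcripts were instead taken at 10 RPKM or more in either sensitive library of the same conditions, 3513 transcripts and 2035 components were higher, 784 transcripts were at least 8-fold higher, and 7250 transcripts were lower. The share of higher calls was 32.6% there and 48.8% with the tolerant filter. Under the pseudocount of 0.1 RPKM the log2 ratio of comp92088_c0_seq1 was -9.20. The other 62 of 85 recomputed values stayed within 1.5-fold of the reported one, with log2 ratios read as folds. Among them were the counts under both scalings and the class medians. Values proportional to those of a transcript in another component were found for 3306 (23.1%) of the 14302 transcripts that reached 1 RPKM in each of the 6 libraries, within a distance of 0.02 on centred natural logarithms. Merging such transcripts left 5879 higher and 6025 lower. No paired analysis was possible because each group has 1 library and no result comes from a test. Values near 0 are limited by a depth that is known only in relative terms.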
